A study of Mus musculus with 20 samples.

Results

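The promoters described here belong to genes with higher expression in spermatogonia than in Sertoli cells, spermatocytes and spermatids of the mouse. In the expression columns attached to the promoter table, a member had a spermatogonia value at least 2 above the spermatid value and above both the Sertoli cell and the spermatocyte value. Genes marked as imprinted in the table and genes annotated to spermatogenesis or reproduction were left out. Genes with a protein listed in the sperm proteome were left out too, as were RIKEN transcripts. The same held for several large families (microRNAs, olfactory and vomeronasal receptors, zinc finger, ribosomal protein and histone genes). The member counts of the gene lists below also depend on these exclusions. Of 22480 promoters, 17133 had expression values, 13784 of these passed the exclusions, and 1109 met the whole rule. Measurements of sperm DNA took no part in it. Below, "all promoters" means all 22480, with the excluded families and the promoters without expression values. The part of these exclusions in any difference between members and all promoters was not tested.

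Spermatogonia are the mitotic germ cells at the base of the seminiferous tubule. They renew themselves and give rise to spermatocytes, which pass through meiosis, and then to spermatids and spermatozoa. Their dividing state is served by genes for DNA replication, ribosome production and RNA splicing, and many such genes start in CpG islands, which are stretches rich in CG sites that stay largely free of methylation in sperm. Methylation at the start of a gene is generally linked to silence, whereas exons inside an active or inactive gene are commonly methylated.

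Sperm DNA of 20 F1 males was measured in 4 groups of 5 libraries. Inbred C57BL/6J and FVB/N dams received di-(2-ethylhexyl) phthalate (DEHP), a plasticizer, at 300 mg/kg/day by gavage in corn oil from gestation day 9 to 19, or corn oil only (0 mg/kg/day), and their sons gave sperm at 8 weeks of age. DNA fragments were captured with a methyl-binding domain and sequenced, so that a promoter's read number rises with its methylation and with its number of CG sites. Each value below is the authors' mean of normalized reads over 5 libraries, with their SD, for a probe from 2000 bp upstream to 200 bp downstream of the gene start. No test was run on these means and SDs, since an exact test needs the values of single libraries and approximate tests were not used with 5 libraries per group. All DEHP libraries were submitted for sequencing together and all controls separately, and with this layout a submission difference and a DEHP difference cannot be told apart. Over all promoters the means summed to 226268 (control) and 153283 (DEHP) for C57BL/6J and to 141091.6 and 150346 for FVB/N, and the median promoter held 5.0, 5.3, 3.0 and 4.9 normalized reads in the same order. Ratios were therefore also taken after scaling the groups to equal sums or equal medians. Promoters of 15 maternally methylated imprints, which are unmethylated in sperm, had medians of 3.9, 4.4, 3.5 and 4.4 normalized reads in the same order of groups. They ranged from 0.5 to 26.5 in C57BL/6J control, and Nnat was the highest in each group, at 26.5, 9.5, 18.1 and 14.6. Whether each probe covers the methylated region of its imprint was not tested. The 4 probes at paternally methylated imprints had medians of 13.8, 6.1, 5.35 and 4.35. Of these 4, H19 held 25.3, 18, 18.8 and 17.5, while Dlk1 and Rasgrf1 held at most 3.7 in any group.

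The name of the set was checked against markers in the same expression columns. Of 13 measured spermatogonial markers, 11 had their highest value in spermatogonia, and their median was 8.33 there, 4.57 in Sertoli cells, 5.33 in spermatocytes and 5.39 in spermatids. All 9 spermatid markers were highest in spermatids. The spermatogonia column was however also the highest of these 4 for 7 of 9 Leydig cell markers (median 9.22) and for 11 of 14 endothelial markers (median 6.77), and the median of 11 Sertoli cell markers was 9.0 in spermatogonia against 9.38 in Sertoli cells. The 1109 members held 1 of the 13 spermatogonial markers (Sall4), 3 Leydig cell genes (Hsd17b3, Hsd3b1 and Fdxr), 3 endothelial genes (Cdh5, Pecam1 and Sox18), the leukocyte genes Mrc1 and Tyrobp, and 8 genes of extracellular matrix. They held 0 of the peritubular, erythroid, Sertoli cell, spermatocyte and spermatid markers. For Sertoli cells, spermatocytes and spermatids the rule and its exclusions largely fixed this in advance, so it is no check of the name. Of 15 peritubular markers, 10 were highest in Sertoli cells, which the rule bars. The 3 measured erythroid markers had medians of 3.76 in spermatogonia and 3.77 in spermatids. Few of either list could thus enter, and their 0 is little check of the name. "Spermatogonia-high" therefore stands for a high value in that column, and the part of other cells in it was not tested.

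Below are 7 windows of 300 bases, from 250 bases upstream to 50 downstream of the start that the probe uses, in GRCm38.p6 (mm10) and written 5' to 3' along the gene, with CG sites in capitals. They show only the starts of promoters named below. Reads were counted over the whole probe, so no gain, loss or difference is placed within a window. Wsb1 (chr11:79254646-79254945, minus strand, 25 CG sites) gained reads with DEHP in C57BL/6J and Esco2 (chr14:65833920-65834219, minus strand, 19 CG sites) lost them. Cd200 (chr16:45409004-45409303, minus strand, 8 CG sites) gained reads in FVB/N and Psmb10 (chr8:105938343-105938642, minus strand, 3 CG sites) lost them. Hddc2 (chr10:31313155-31313454, plus strand, 10 CG sites) differed between strains, and its window repeats GGGCGG, the GC box letters, 6 times. Pold1 (chr7:44548766-44549065, minus strand, 24 CG sites) and Zbtb33 (chrX:38189543-38189842, plus strand, 34 CG sites) were among the members with the highest and the lowest read levels, although both starts are rich in CG.
Wsb1: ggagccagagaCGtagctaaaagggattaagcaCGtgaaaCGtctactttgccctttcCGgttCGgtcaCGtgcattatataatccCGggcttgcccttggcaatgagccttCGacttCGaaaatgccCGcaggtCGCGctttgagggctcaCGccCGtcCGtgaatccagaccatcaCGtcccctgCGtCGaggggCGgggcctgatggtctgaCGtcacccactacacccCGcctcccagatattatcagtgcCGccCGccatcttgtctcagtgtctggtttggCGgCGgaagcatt
Esco2: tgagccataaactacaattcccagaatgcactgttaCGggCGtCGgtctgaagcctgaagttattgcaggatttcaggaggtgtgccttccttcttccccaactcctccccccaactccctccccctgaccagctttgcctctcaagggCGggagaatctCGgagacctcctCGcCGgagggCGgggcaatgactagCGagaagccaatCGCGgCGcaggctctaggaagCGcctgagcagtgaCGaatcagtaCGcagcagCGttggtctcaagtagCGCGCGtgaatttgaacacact
Cd200: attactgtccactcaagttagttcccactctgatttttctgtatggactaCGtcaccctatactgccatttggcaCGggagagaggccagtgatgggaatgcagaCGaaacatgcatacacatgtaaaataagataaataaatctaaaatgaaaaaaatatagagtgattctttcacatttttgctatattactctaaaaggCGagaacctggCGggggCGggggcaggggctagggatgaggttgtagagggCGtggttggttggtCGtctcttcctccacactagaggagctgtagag
Psmb10: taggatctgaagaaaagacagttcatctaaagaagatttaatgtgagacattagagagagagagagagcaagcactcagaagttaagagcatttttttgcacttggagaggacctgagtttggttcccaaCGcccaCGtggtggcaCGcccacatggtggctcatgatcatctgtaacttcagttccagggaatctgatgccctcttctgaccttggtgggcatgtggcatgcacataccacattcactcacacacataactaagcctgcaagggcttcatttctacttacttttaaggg
Hddc2: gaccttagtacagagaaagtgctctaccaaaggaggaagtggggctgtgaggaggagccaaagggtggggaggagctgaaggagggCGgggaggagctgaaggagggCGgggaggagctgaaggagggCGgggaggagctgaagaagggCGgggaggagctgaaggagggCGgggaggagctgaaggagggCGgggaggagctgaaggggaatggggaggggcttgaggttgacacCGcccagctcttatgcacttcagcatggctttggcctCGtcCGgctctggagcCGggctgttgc
Pold1: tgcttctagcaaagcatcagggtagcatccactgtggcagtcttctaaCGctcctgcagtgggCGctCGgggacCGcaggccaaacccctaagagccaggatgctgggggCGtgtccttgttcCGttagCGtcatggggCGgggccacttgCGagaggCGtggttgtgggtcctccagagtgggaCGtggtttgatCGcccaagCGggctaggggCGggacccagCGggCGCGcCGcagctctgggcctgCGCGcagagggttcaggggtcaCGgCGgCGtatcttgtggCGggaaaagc
Zbtb33: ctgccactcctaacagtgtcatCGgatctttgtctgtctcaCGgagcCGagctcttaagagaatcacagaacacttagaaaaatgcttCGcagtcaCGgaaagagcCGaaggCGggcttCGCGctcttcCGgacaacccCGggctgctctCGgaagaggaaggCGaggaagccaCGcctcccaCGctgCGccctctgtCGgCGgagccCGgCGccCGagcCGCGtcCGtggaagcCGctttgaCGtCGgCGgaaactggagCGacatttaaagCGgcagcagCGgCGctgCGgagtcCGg

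Members were rich in CG sites. Their probes held a median of 64 CG sites, against 45 over all promoters, 60 for genes highest in Sertoli cells (n = 1305, mirrored rule) and 40 for genes highest in spermatids (n = 784, mirrored rule). The ratio of observed to expected CG was 0.485, against 0.358 over all promoters, and the window around the start held 23 CG sites against 12. The GC box (GGGCGG, either strand) was present in the start windows of 71.1% of members, 70.3% of Sertoli-high, 39.7% of spermatid-high and 45.3% of all promoters. TATAAA was found in 6.94% of members and 12.8% of all promoters. The E2F letters TTTGGCGC or TTTCCCGC, bound by factors of the cell cycle, were found in 44 members (3.97%), in 1.92% of Sertoli-high, 1.28% of spermatid-high and 2.01% of all promoters. CCAAT was as common in members (37.2%) as in all promoters (37.6%). All promoters include the olfactory, vomeronasal and microRNA genes, for which the paper reports fewer CG sites than for other genes.

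Read levels of the members were low. The median member held 4.0 normalized reads in C57BL/6J control, 4.2 in C57BL/6J DEHP, 2.4 in FVB/N control and 3.8 in FVB/N DEHP, each below the value over all promoters, and spermatid-high promoters held 6.9, 6.4, 3.9 and 6.2. Sertoli-high promoters were nearly as low as the members, at 4.5, 4.6, 2.8 and 4.2, so a low level was not particular to the members. Below 1 normalized read were 8.39%, 6.13%, 15.3% and 11.2% of members in the 4 groups, against 8.8%, 4.66%, 14.8% and 8.04% of all promoters. At or above 20 normalized reads stood 92 members (8.3%) in C57BL/6J control, 13 (1.17%) in C57BL/6J DEHP, 36 (3.25%) in FVB/N control and 23 (2.07%) in FVB/N DEHP, and over all promoters 14.6%, 3.35%, 6.25% and 4.02%. Sertoli-high promoters had shares of 8.35%, 0.613%, 2.68% and 1.15% at that level. Only 11 members stood at or above 20 normalized reads in all 4 groups, among them Pold1, Cyba, Hsd17b1, Mgp and Casq2. The spread between libraries was like that of other promoters. For members with a mean of at least 3, the median SD was 0.407, 0.396, 0.588 and 0.368 of the mean in the 4 groups, against 0.389, 0.385, 0.59 and 0.336 over all promoters.

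The level followed the number of CG sites. In C57BL/6J control, medians of members went from 2.85 normalized reads at 1 to 10 CG sites (10 members) over 6.9 at 11 to 20 (39 members) to 11.6 at 21 to 30 (58 members), and then down to 5.95 at 31 to 40 (96 members) and to 2.35 above 100 (158 members). All promoters followed the same course with a higher peak, 16.4 at 21 to 30 and 10 at 31 to 40 CG sites. Sertoli-high promoters peaked lower than the members, with 7.5 at 21 to 30 (97 promoters), and held 6.2 at 31 to 40. From 61 CG sites on the curves met, with 4.35, 3.6 and 2.35 in the last 3 classes (282, 179 and 158 members) against 4.5, 3.7 and 2.4 over all promoters. Promoters are not replicates, so no test was attached to these differences.

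**Figure D1:**
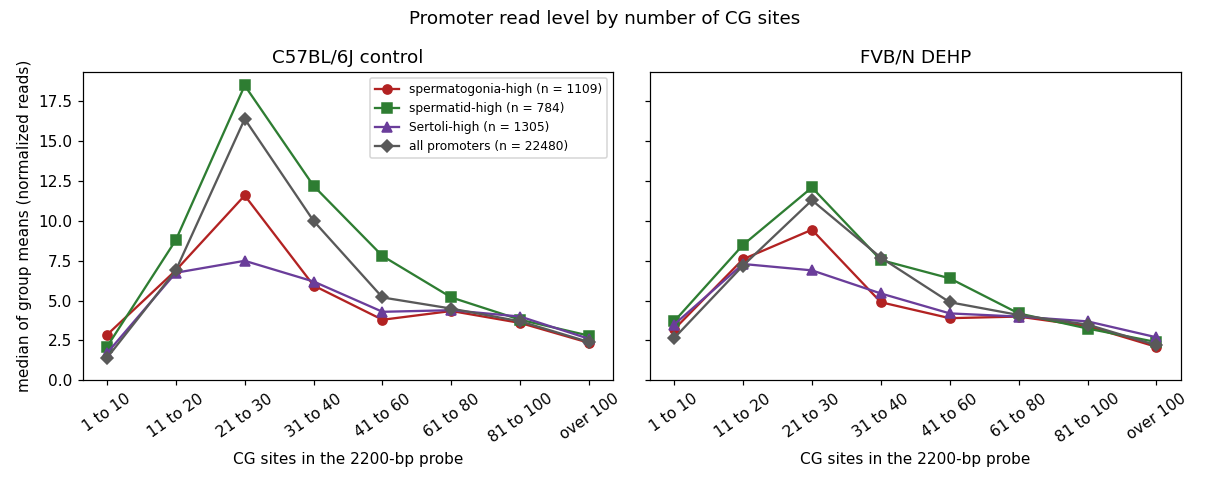
Median of the group means (y axis, normalized reads) by number of CG sites in the probe (x axis, 8 classes) for spermatogonia-high promoters (circles), spermatid-high promoters (squares), Sertoli-high promoters (triangles) and all promoters (diamonds), in C57BL/6J control (left) and FVB/N DEHP (right). Members peaked at 21 to 30 CG sites, at 11.6 and 9.45 normalized reads, below the 16.4 and 11.3 of all promoters. Sertoli-high promoters held 7.5 and 6.9 in that class, and the sets came together from 61 CG sites on.

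The level also went with the place of the CG sites in the probe. The 36 members whose 4 group means averaged 20 or more held a median of 8 CG sites in the start window and 27 farther upstream, whereas the 297 members below 2 held 27 at the start and 31 upstream. Among members with at most 5 CG sites at the start, medians in C57BL/6J control were 5.05 normalized reads with up to 15 CG sites upstream (52 members) and 16.9 with 16 to 30 (38 members). With 26 or more CG sites at the start, they were 1.7 (35 members) and 3.8 (161 members) for the same numbers upstream. In that class the median was lower again, at 2.6, with more than 30 CG sites upstream (267 members). Only 5 members had more than 30 upstream and at most 5 at the start, with a median above 16.9. Spearman's rho of level with upstream CG sites was -0.01, -0.16, 0.02 and -0.13 in the 4 groups over all members. It was 0.5, 0.46, 0.53 and 0.43 in the 203 members with at most 40 CG sites.

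Levels were also set beside the neighbouring genes. RefSeq exons of another gene that passes or ends inside the probe, without starting there, were present in 95 members (8.57%), against 10.7% of all promoters. These 95 had a median of 8.5 normalized reads in C57BL/6J control, against 3.8 in the 891 members free of other genes, with 65 and 61 CG sites per probe. The order was the same in the other groups (6.1 against 4.2 in C57BL/6J DEHP, 4.7 against 2.4 in FVB/N control and 5.6 against 3.7 in FVB/N DEHP). A neighbour that starts inside the probe went with 3.6 normalized reads in C57BL/6J control and 88 CG sites (123 members). Of the 36 members with at least 20 normalized reads, 9 (25%) carried such passing exons, against 34.5% of all 1609 promoters at that level. Among the 9 were Pold1 (796 bp of exons of Nr1h2), Cyba (689 bp, Mvd), Hsd17b1 (1262 bp, Naglu), Dvl2 (1281 bp, Phf23) and Psmb10 (590 bp, Lcat).

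**Figure D2:**
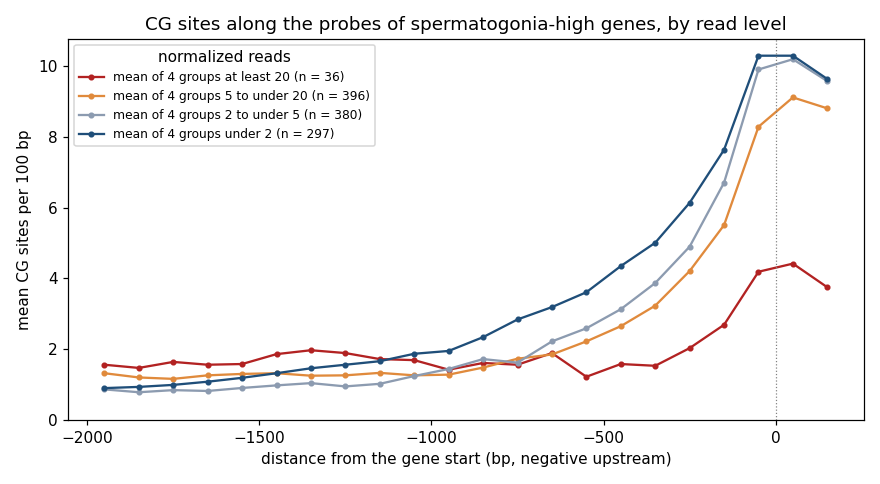
Mean number of CG sites per 100 bp (y axis) against the distance from the gene start (x axis, bp) for spermatogonia-high promoters in 4 classes of read level, by the mean over the 4 groups. The line of the 36 members with at least 20 normalized reads is the highest from -2000 to -1100 bp and the lowest from -600 bp on, and that of the 297 members below 2 is the highest from -1100 bp on.

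The 8 members with the highest levels were Nt5dc2, LOC101056043, Hsd17b1, Pold1, Cyba, Wfdc1, Tmem204 and Mgp. Nt5dc2 held 86.4 ± 30.0 normalized reads (SD, n = 5) in C57BL/6J control, 34.9 ± 14.6 in C57BL/6J DEHP, 55.1 ± 19.9 in FVB/N control and 39.7 ± 13.6 in FVB/N DEHP. Pold1, the catalytic subunit of DNA polymerase delta, held 83.7 ± 36.4, 20 ± 10.2, 57.1 ± 17.3 and 22.9 ± 4.3 in the same order. Hsd17b1, which reduces estrone to estradiol, held 69.4 ± 35.8, 28.0 ± 9.3, 53.3 ± 9.9 and 33.2 ± 3.4. Mgp, a calcification inhibitor of the extracellular matrix, held 53.1 ± 12.3, 24.2 ± 7.1, 37.2 ± 6.6 and 20.2 ± 3.3. In each of these 4 genes both control groups had higher means than both DEHP groups, as deposited and under both other scalings. The lowest 4 were Zbtb33 (Kaiso, itself a reader of methylated CG), Hmgn5, Ubtf (a factor of ribosomal RNA transcription) and Nfib, with 64, 58, 145 and 152 CG sites. Zbtb33 was listed at 0.7 ± 1.6, 0.0 ± 0.0, 0.0 ± 0.0 and 0.7 ± 0.8 normalized reads, and Ubtf at 0.7 ± 0.6, 0.5 ± 0.5, 0.0 ± 0.0 and 0.5 ± 1.1.

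Zbtb33 and Hmgn5 lie on the X chromosome, which holds 65 members (5.86%, against 3.35% of all promoters). X-linked members had medians of 1.4, 1.8, 1.1 and 1.8 normalized reads in the 4 groups, against 4.5, 4.4, 2.6 and 4.0 in the 1044 autosomal members. With more than 40 CG sites the medians were 1.4, 1.4, 1.1 and 1.8 (37 members on X) and 3.8, 4.0, 2.3 and 3.7 (869 autosomal members). X-linked promoters as a whole lay equally low, at 1.4, 2.0, 1.2 and 2.0. A sperm cell carries either an X or a Y chromosome, so X-linked probes have fewer copies than autosomal ones in these samples. The part of copy number in these levels was not tested.

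Within the members, the expression value in spermatogonia showed no clear relation to the reads at the promoter. Spearman's rho across the 1109 members was 0.03, -0.01, 0.04 and 0.02 in the 4 groups, as a description over genes that share libraries. The members were chosen on this same expression value, which narrows its range, so these values do not speak for genes in general. Over the whole genome the authors report a negative correlation between promoter methylation and expression in germ cell types. The 8 members with the largest distance between spermatogonia and spermatids ranged widely. Among them, Ifitm2, an interferon-induced membrane protein, held 30.5 ± 12.3 normalized reads in C57BL/6J control, Col6a1, a chain of collagen VI, 24.2 ± 11.6 and Islr 14.1 ± 7.7, whereas Fkbp9 held 11 ± 4.2, Rhob 4.7 ± 1.3, Chsy1 4.2 ± 2.2, Col3a1 3.8 ± 1.3 and Bex1 0.5 ± 0.6. Their probes held 24, 32, 17, 65, 89, 120, 12 and 38 CG sites. At the threshold, Zfyve9 (expression difference 2.0013), Rsl24d1 (2.0017) and Mrpl44 (2.0023) were just inside and held 4.7, 4.5 and 2.8 normalized reads in C57BL/6J control. Luc7l2 (1.9996), Rictor (1.9997) and Pnldc1 (below 2 by less than its 4 printed decimals) were just outside and held 2.5, 0.2 and 20.

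DNA replication genes contributed 14 members of 46 in the table, with levels from 0.575 to 45.9 normalized reads as means over the 4 groups and a median of 3.25. Most of the helicase subunits were low, with Mcm2 at 6.7 ± 3.5, Mcm4 at 5.0 ± 2.5, Mcm5 at 6.1 ± 2.7 and Mcm6 at 4.3 ± 2.0 in C57BL/6J control, whereas Mcm3 held 27.6 ± 8.7. The replicative ligase Lig1 held 29.0 ± 11.4, 10.8 ± 4.3, 26.9 ± 6.3 and 11 ± 2.7 in the 4 groups, over only 24 CG sites and 283 bp of exons of Zswim9. With Pold1, these were the 3 highest members of the list. Of 7 members for cell cycle and mitosis, Ccna2 (cyclin A) was highest at 15.8 ± 3.8 in C57BL/6J control, Kif11, a spindle motor, held 8.2 ± 4.5 and Cdk1 5.7 ± 3.2, and Mki67, the proliferation marker Ki-67, held 1.6 ± 1.4. Nucleotide synthesis gave 6 members between 1.32 and 3.7 as means over the 4 groups, with Shmt2, Atic and Dut on top.

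Ribosome biogenesis gave 15 members of 46, from Ubtf at 0.425 to Mybbp1a at 8.8, with a median of 2.75 and 75 CG sites. Nop16 and Wdr43 were next, at 8.65 and 6.93. RNA splicing was the largest list, with 21 members of 53 and a median of 2.65. Its highest promoters were Lsm6 (18.0 ± 3.7 in C57BL/6J control), Sf3b1 (13.9 ± 5.1) and Prpf19 (5.2 ± 1.4), and the other 18, with 11 Srsf and Hnrnp genes among them, were lower in their mean over the groups. The mitochondrial ribosome gave 10 of 74 members with a median of 4.71, led by Mrpl23, Mrps16 and Mrps7. Translation factors gave 6 members (Eef1e1, Eif4a1 and Eef1b2 highest, median 2.81), chaperones 3 (Pfdn2, Hspe1 and Ppib), chromatin regulators 4 (Hmgb3, Ehmt1 and Rbbp7 highest, median 1.55), the tRNA synthetases Mars alone and the respiratory chain Ndufaf4 alone, at 8.12 and 1.6. Of 2 proteasome members, Psmb10 held 28.1 and Psmd5 4.17 as means over the groups. The genes of extracellular matrix had a median of 35.5 CG sites, and Col6a3, Col1a1 and Col6a1 held 24.7 ± 10.3, 28.4 ± 9.2 and 24.2 ± 11.6 in C57BL/6J control. The endothelial genes Cdh5 (31 ± 13.6) and Pecam1 (21.9 ± 6.8) and the leukocyte gene Tyrobp (22.4 ± 8.5) were also read-rich, while Sox18 held 4.3 ± 1.2, Mrc1 10.6 ± 5.3, and the Leydig cell genes Hsd17b3, Hsd3b1 and Fdxr 10.5 ± 6.5, 3.3 ± 2.1 and 1.7 ± 1.1. Inpp5f, which contains a maternally methylated imprint, held 15 ± 6.1.

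Of 45 regulators of spermatogonia in the table, 5 were members, namely Crabp1, a retinoic acid binding protein, Sall4, a stem cell factor, Taf4b, Foxo1 and Esrp1. Crabp1 held 18.4 ± 5.0, 9.2 ± 4.5, 17.0 ± 2.5 and 13.5 ± 2.8 normalized reads in the 4 groups, and Sall4 14.9 ± 3.6, 5.9 ± 2.3, 12.7 ± 1.8 and 6.9 ± 3.0. For both genes each control mean lay above the DEHP mean of the same strain under all 3 scalings, although their libraries were separated only in FVB/N with equal medians. Foxo1, a transcription factor of stem cell maintenance, held 2.1 ± 1.0, 3.5 ± 1.9, 1.4 ± 1.6 and 3.5 ± 1.6, and Esrp1, a splicing regulator, 2.1 ± 1.9, 0.4 ± 0.8, 1.1 ± 1.1 and 0.2 ± 0.4. Taf4b, a subunit of a basal transcription factor, held 2.1 ± 2.0, 5.3 ± 2.6, 1.4 ± 1.6 and 2.9 ± 1.0. Among enzymes that set and remove methylation, the maintenance methyltransferase Dnmt1 held 32.9 ± 13.4, 13.9 ± 2.9, 26 ± 7.3 and 22.7 ± 6.1, while Dnmt3b held 3.8 ± 2.0 and Tet2 1.4 ± 2.0 in C57BL/6J control (these 3 and Foxo1, Esrp1, Mki67 and the helicase genes other than Mcm3 were chosen after their values were seen).

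Prenatal DEHP was first compared with control in C57BL/6J. No library of 5 can lie more than 1.79 SD from its group's mean, and 2 groups are called separated here where the ranges this allows, widened for rounding, do not overlap. Every library of one group then lies above every library of the other. Ratios are log2 ratios of means after adding 1 normalized read, DEHP over control. Among members, 1 promoter was separated with DEHP higher and 7 with DEHP lower, or 0.0902% and 0.631%, and over all promoters the shares were 0.249% and 1.42%. The member that gained was Wsb1, a substrate receptor of a ubiquitin ligase, with 4.3 ± 0.9 against 0.9 ± 0.5 normalized reads and a log2 ratio of 1.48. It was separated under all 3 scalings, whereas FVB/N males held 1.9 ± 1.7 with DEHP and 1.2 ± 1.2 without.

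The 7 members that lost reads in C57BL/6J ranged from -1.75 to -1.28. Mdk, the growth factor midkine, fell from 33 ± 8.8 to 9.1 ± 4.0 normalized reads (log2 ratio -1.75), and Emg1, a methyltransferase of ribosome assembly, from 24.7 ± 6.6 to 7.3 ± 2.9 (-1.63). Casq2, the calcium buffer calsequestrin, had 55.8 ± 12.2 against 20 ± 7.0 and Asl, argininosuccinate lyase of the urea cycle, 21.1 ± 4.1 against 7.9 ± 3.0. Esco2, which acetylates cohesin during replication, had 10.9 ± 2.2 against 3.8 ± 0.5. The 2 remaining were Pik3c3, a lipid kinase of autophagy (30.2 ± 6.1 against 10.8 ± 3.5), and Sema5b, a semaphorin (12.8 ± 1.1 against 4.7 ± 2.4). In all 7 the mean was also lower under the other 2 scalings, whose factors are too small to turn the sign of such ratios. When the groups had equal sums, 0 of the 7 stayed separated. Then 10 members were separated with DEHP higher (all promoters 1.02%), Wsb1, Aspn, Cd200 and the primase subunit Prim1 among them. With equal medians all 7 were separated. At a log2 ratio of at least 1 were 52 members (4.69%, all promoters 5.63%), and at -1 or lower 113 (10.2%, all promoters 11.1%). The median over the members was -0.13, or 0.03 below that of all promoters, which itself was -0.10 as deposited, 0.33 with equal sums and -0.16 with equal medians.

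In FVB/N, 8 members were separated with DEHP higher and 3 with DEHP lower, or 0.721% and 0.271%, against 0.774% and 0.859% of all promoters. Psmb10, a catalytic subunit of the immunoproteasome, fell from 40.9 ± 3.7 to 13.4 ± 4.1 normalized reads (log2 ratio -1.54). Dvl2, a Dishevelled protein of Wnt signalling, fell from 35.9 ± 5.1 to 15.2 ± 4.3 (-1.19), and Cyba, a membrane subunit of NADPH oxidase, from 59.0 ± 13.3 to 26.3 ± 3.8 (-1.14). All 3 were separated under every scaling, and all 3 carry passing exons of a neighbour, as do 101 of the 193 promoters separated in this direction in the whole table (52.3%). Of the 7 members lower in C57BL/6J only Mdk does (14.3%, all promoters 29.8%), and of the 8 members higher in FVB/N only Aspn and Gabpa (25%, all promoters 7.47%). Their means in C57BL/6J were 41.8 ± 16.7 and 16.3 ± 3.8 for Psmb10, 49.2 ± 16.3 and 13.5 ± 5.2 for Dvl2, and 71.8 ± 27.2 and 25.2 ± 10.1 for Cyba, for control and DEHP, where the wider spread of the controls kept the ranges in contact.

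The 8 members with more reads after DEHP in FVB/N held between 0.2 and 4.3 normalized reads in FVB/N control, where the median of members was 2.4. Aspn, asporin of the extracellular matrix, held 8.2 ± 2.4 normalized reads with DEHP against 0.7 ± 1.1 in control (log2 ratio 2.44), over 14 CG sites. Gabpa, an ETS transcription factor, held 16.6 ± 3.7 against 4.3 ± 1.6 (1.73) and Slc7a8, an amino acid transporter, 9.6 ± 2.4 against 2.6 ± 0.5 (1.56). Eci2, an isomerase of fatty acid oxidation, held 4.7 ± 0.7 against 0.9 ± 1.0 and the mitochondrial ribosomal gene Mrps17 5.5 ± 0.7 against 1.2 ± 0.9. Rfc5 of the replication clamp loader held 9.0 ± 1.5 against 3.3 ± 1.4, Rbbp5 of histone methyltransferase complexes 3.8 ± 1.0 against 1.1 ± 0.1, and Cd200, a membrane glycoprotein, 1.8 ± 0.1 against 0.2 ± 0.5. In 6 of the 8, the mean of C57BL/6J was also higher with DEHP as deposited, and Mrps17 (7.5 ± 3.3 against 9.0 ± 4.4) and Rbbp5 (4.1 ± 1.4 against 5.9 ± 3.6) were the exceptions. All 8 kept a ratio above 0 under the other scalings, whose factors are too small to turn the sign of such ratios. With equal medians 0 of the 8 were separated. Then 25 members were separated with DEHP lower (all promoters 3.25%), Lig1, Pold1, Ccna2, Sall4 and Crabp1 among them. The members at a log2 ratio of at least 1 numbered 140 (12.6%, all promoters 15.3%) and those at -1 or lower 30 (2.71%, all promoters 2.84%). Their median was 0.31, or 0.04 below that of all promoters, which was 0.35 as deposited, 0.29 with equal sums and -0.18 with equal medians.

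**Figure D3:**
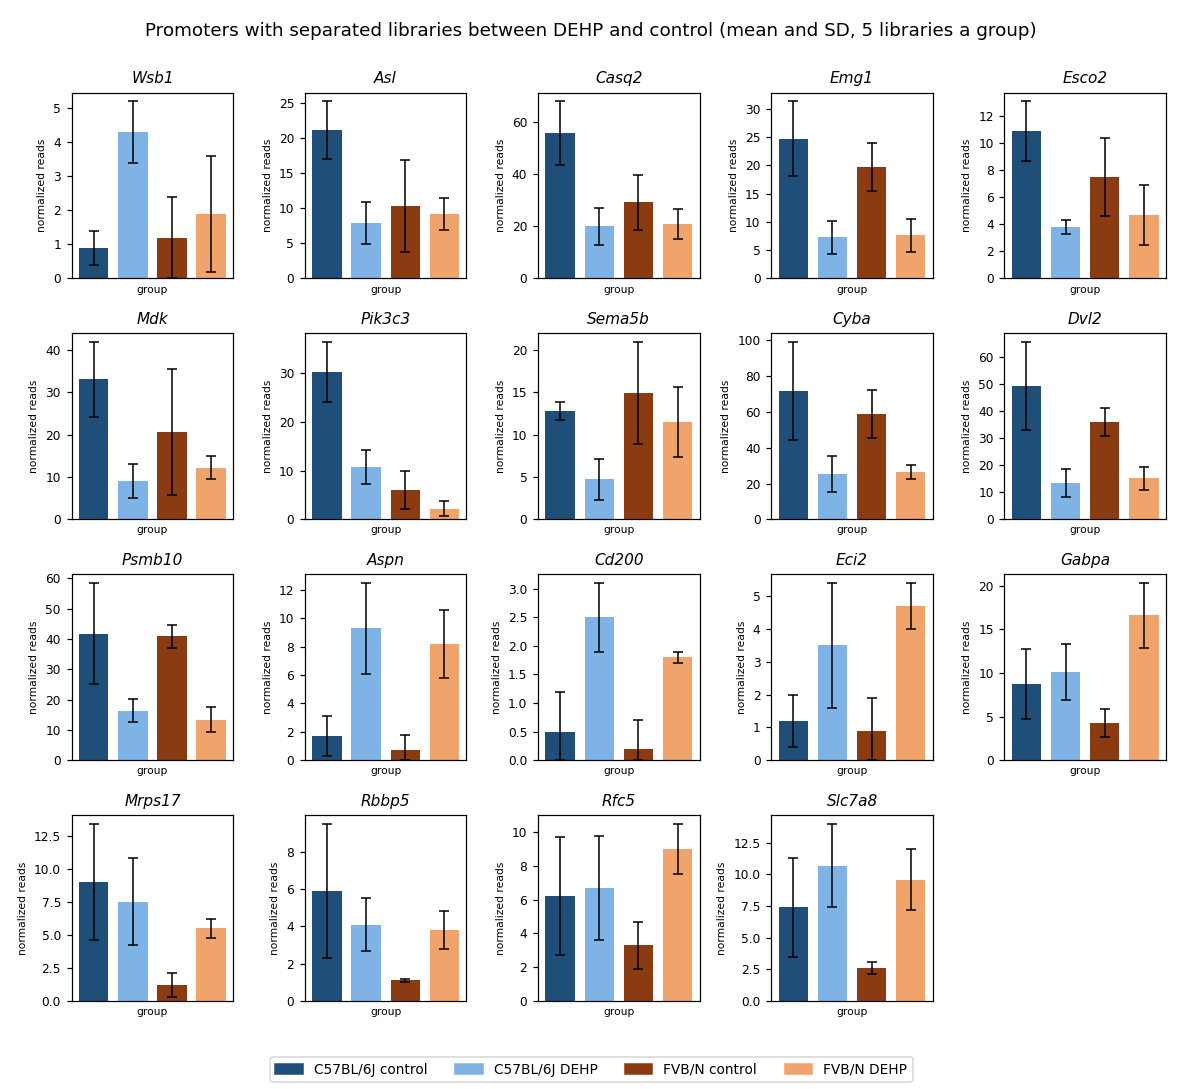
Mean normalized reads (y axes, each from 0, own scale) of the 19 spermatogonia-high promoters with separated libraries between DEHP and control in 1 strain, by group (bars, 5 libraries each), with error bars of 1 SD that stop at 0 below. Wsb1 comes first, then the 7 promoters lower with DEHP in C57BL/6J (Asl to Sema5b), the 3 lower in FVB/N (Cyba to Psmb10) and the 8 higher in FVB/N (Aspn to Slc7a8).

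As deposited, 0 members were separated in both strains, in the same or in opposite directions, where the whole table held 39 promoters separated lower in both strains (0.173%), 0 separated higher and 0 in opposite directions. With equal sums, Aspn and Cd200 were separated in both strains with DEHP higher, and with equal medians Emg1 and Rapgef2 with DEHP lower. The share of all promoters separated in both strains is given as deposited only. Taken by strain, 1.02% (C57BL/6J) and 0.627% (FVB/N) of all promoters were separated higher with equal sums. With equal medians 1.88% and 3.25% were separated lower. By size alone, 18 members lay at -1 or lower in both strains (1.62%, all promoters 1.83%), and 14 at 1 or higher (1.26%, all promoters 2.31%). The 18 comprised Emg1, Psmb10, Dvl2, Cyba, Pik3c3, the replication genes Lig1, Pold1 and Timeless, and Id1, an inhibitor of differentiation. Timeless held 29.6 ± 10.4 (control) and 10.8 ± 3.9 (DEHP) in C57BL/6J males, and 23.5 ± 8.1 and 10.9 ± 2.1 in FVB/N males. Id1 held 1.2 ± 1.4 and 0.0 ± 0.0, then 2.5 ± 1.7 and 0.7 ± 0.8, values near the lower end of the scale. The 14 comprised Aspn, Cd200 and Eci2, and Orc6 of the origin recognition complex, which held 0.7 ± 0.7 (control) and 2.8 ± 1.3 (DEHP) in C57BL/6J males, and 1.7 ± 1.9 and 4.7 ± 1.7 in FVB/N males. Timeless, Id1, Orc6, Rapgef2 and Prim1 were chosen after their values were seen. The members at -1 or lower and at 1 or higher became 6 (0.541%) and 31 (2.8%) with equal sums, where all promoters had 1.14% and 5.08%. With equal medians they became 62 (5.59%) and 2 (0.18%), where all promoters had 7.27% and 0.698%.

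Ratios were also set beside the level of the promoter. The level classes are cut on the mean of the same 4 groups, so that promoters high in control enter the top class through the control groups, and the following values are a description with no support drawn from them. All 36 members with at least 20 normalized reads on average had a lower mean with DEHP in C57BL/6J (median log2 ratio -1.28), and 31 of them in FVB/N (-0.54). With equal sums these medians were -0.73 and -0.63, for 35 and 31 members, and with equal medians -1.36 and -1.23, for 36 members in each strain. The 380 members between 2 and 5 normalized reads had medians of 0.13 and 0.55, or 0.55 and 0.51 with equal sums and 0.06 and 0.03 with equal medians. Over all promoters with at least 20 normalized reads the medians were -1.13 and -0.44 as deposited.

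Medians of the ratio were also taken per list. Those for DNA replication were -0.17 (C57BL/6J) and 0.20 (FVB/N), for ribosome biogenesis 0.07 and 0.34, for cell cycle and mitosis -0.10 and 0.48, and for the mitochondrial ribosome -0.06 and 0.43, against -0.10 and 0.35 over all promoters. RNA splicing lay at 0.32 and 0.58, above all promoters by 0.43 and 0.24 as deposited, by 0.31 and 0.26 with equal sums and by 0.42 and 0.22 with equal medians. As deposited, 0 of its 21 members were separated in either strain. The 5 regulators of spermatogonia lay at -0.93 and -0.31, below all promoters by between 0.66 and 0.83 under the 3 scalings. Of these 5, 0 were separated as deposited, whereas Crabp1 and Sall4 were separated lower in FVB/N with equal medians. The ratios of the 5 as deposited ranged from -1.2 to 1.02 and from -0.81 to 0.91, with Taf4b and Foxo1 above 0 in both strains and Crabp1, Sall4 and Esrp1 below. Rfc5 and Mrps17 (higher in FVB/N) and Psmb10 (lower in FVB/N) were the 3 members of any list with separated libraries between DEHP and control as deposited. The other scalings changed this, and Lig1 was separated lower in FVB/N under both of them.

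**Figure D4:**
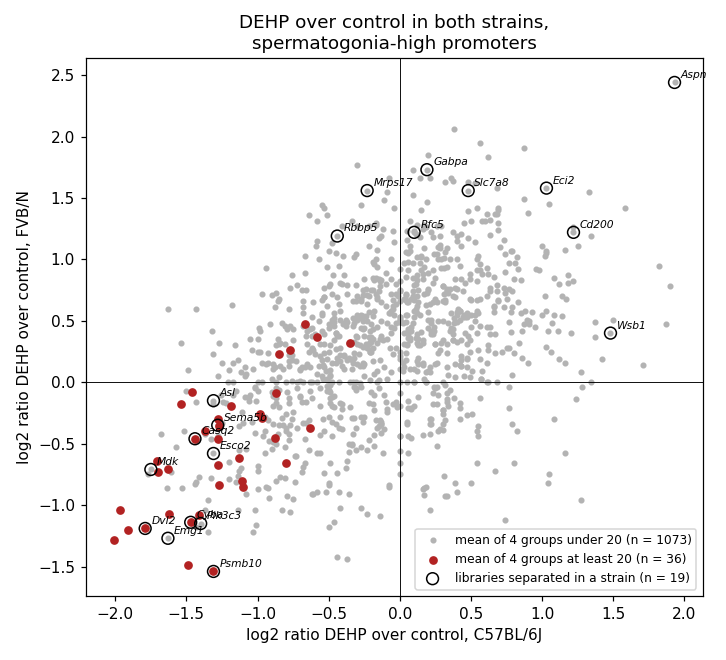
Log2 ratio of means, DEHP over control, in C57BL/6J (x axis) against FVB/N (y axis) for the 1109 spermatogonia-high promoters (as deposited), with the 36 of at least 20 normalized reads in dark red and the 19 with separated libraries circled and named. The read-rich promoters, chosen on the mean of the same groups, all lie left of 0, and Aspn lies alone at the upper right, at 1.93 and 2.44.

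Strains were compared within each treatment, as C57BL/6J over FVB/N. In controls, 10 members (0.902%, all promoters 1.06%) were separated with C57BL/6J higher and 0 with FVB/N higher (all promoters 0.0267%). Hddc2, an HD domain protein, held 13.6 ± 4.6 normalized reads in C57BL/6J against 0.7 ± 1.1 in FVB/N (log2 ratio 3.10), Prpf39, a splicing factor, 15.3 ± 4.4 against 1.9 ± 2.1 (2.49), Dtx4, a Deltex ubiquitin ligase of Notch signalling, 10.6 ± 2.3 against 1.1 ± 1.0 (2.47), and Pik3c3 30.2 ± 6.1 against 6.1 ± 3.9 (2.14). Hddc2, Dtx4 and Wdr45b (4.0 ± 0.5 against 0.5 ± 0.6, chosen after its values were seen) were separated under all 3 scalings, and Prpf39 and Pik3c3 as deposited only. The median of members was 0.50, against 0.54 over all promoters, which became 0.00 with equal sums and -0.04 with equal medians. Log2 ratios of 1 or higher were held by 177 members (16%, all promoters 17.4%), and at -1 or lower 5 (0.451%, all promoters 0.698%).

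After DEHP, 4 members (0.361%, all promoters 0.307%) were separated with C57BL/6J higher and 0 with FVB/N higher (all promoters 0.0311%). Hddc2 held 5.5 ± 1.8 against 0.9 ± 0.6 normalized reads, and it was the only member separated between strains in both treatments. E2f6, a repressor of the E2F family, held 7.8 ± 0.9 against 3.3 ± 1.3, and its ratio was 1.72 in controls and 1.03 after DEHP. Cnot8, a deadenylase, held 2.5 ± 0.6 against 0.2 ± 0.4, while Eps8, a regulator of actin, held 2.9 ± 1.1 in C57BL/6J and was listed at 0.0 in FVB/N. Cnot8 and Eps8 were separated under all 3 scalings, E2f6 not with equal medians, and Hddc2 only as deposited. The median was 0.05, against 0.04 over all promoters, and 34 members lay at 1 or higher (3.07%, all promoters 2.93%) and 5 at -1 or lower (0.451%, all promoters 0.369%).

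Sequence variants between the strains, counted by the authors, went with the strain ratio. Hddc2 has 37 in its probe, Eps8 35, E2f6 20 and Cnot8 11, whereas Dtx4 and Prpf39 have 3 each. In controls, the share of members at a log2 ratio of 1 or higher was 13.4% of 618 without a variant, 13.4% of 277 with 1 to 5, 23.3% of 146 with 6 to 15 and 33.8% of 68 with more than 15, and over all promoters 12.8%, 15.1%, 25% and 43.2%. After DEHP the shares of members were 1.13%, 2.89%, 4.11% and 19.1%, and over all promoters 0.891%, 1.9%, 4.9% and 16.5%. Reads of both strains were aligned to the reference genome, which is that of C57BL/6J, and the part of alignment in these ratios was not tested.

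**Figure D5:**
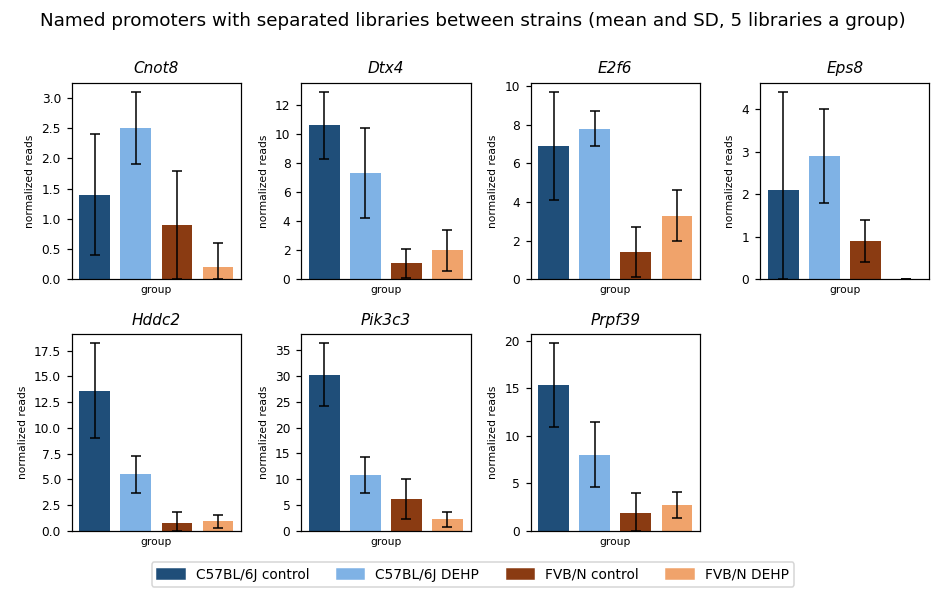
Mean normalized reads (y axes, each from 0, own scale) in the 4 groups (bars, 5 libraries each, error bars of 1 SD that stop at 0 below) for the 7 named spermatogonia-high promoters with separated libraries between strains. Hddc2, Dtx4, Pik3c3 and Prpf39 stand higher in C57BL/6J in controls, and Cnot8, E2f6, Eps8 and Hddc2 after DEHP.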

How the data were processed

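MBD-sequencing of sperm DNA was compared in 4 groups of 5 libraries, taken from the labels. According to the methods, the reads were placed on mm10 by the authors with Bowtie 0.12.7, who discarded ambiguous and non-concordant pairs and pairs without CpG, counted pairs per promoter probe and normalized with edgeR. The deposited signal is the mean of normalized reads per group with 1 decimal, with its SD. The deposited expression score per gene and cell type came from an independent dataset, and its scale is not stated. The authors' p-values, FDR and fold changes between groups, held in further columns, were not used. Depth per library was unknown. The paper gives averages only, with more and slightly longer read-pairs for DEHP than for control libraries, and their part in the differences was not tested. Approximate tests can be computed from means and SDs but were not run, and exact ones need values per library.

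Log2 ratios used a pseudocount of 1. Separation used the bound of 1.79 SD and a rounding margin of 0.05, tested on simulated data, and gives a lower limit of separated promoters. Sequence came from GRCm38.p6, where 93.2% of probes (90.4% of members) had the deposited number of CG sites, and neighbouring exons from its RefSeq annotation. Named promoters were, per strain, the 8 separated members per direction of DEHP with the largest ratio, 4 per direction between strains, the 8 highest and 4 lowest in level, 3 per gene list with its separated members, the 8 with the largest expression difference and 3 on each side of its threshold. The members and the 24 lists were chosen with earlier results of these data known. Alternatives were equal sums, equal medians, means of at least 1, an expression difference of 3, no overlapping probes, a bound of 2 SD and a pseudocount of 0.1. Python 3.11.15, numpy 2.4.6, pandas 2.3.3, pysam 0.24.0 and matplotlib 3.10.9 were used.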

Additional observations from a re-analysis of the deposited data

How the results depend on the processing

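Counts of separated members depended on the scaling. For DEHP in C57BL/6J, 1 higher and 7 lower became 10 and 0 with equal sums (all promoters 1.02% and 0.129%). In FVB/N, 8 higher and 3 lower became 0 and 25 with equal medians, and 3 lower became 5 with equal sums. Between strains in controls, 10 became 4 with equal sums (all promoters 0.307%) and 3 with equal medians (all promoters 0.289%). After DEHP 4 became 2 with equal medians (all promoters 0.258%). A bound of 2 SD left 2 lower in C57BL/6J and 2 between strains after DEHP, for which no share of all promoters is given. The 507 members with an expression difference of at least 3 held 2 lower in C57BL/6J, 2 higher and 1 lower in FVB/N, and 2 between strains after DEHP, from fewer promoters. The cause of the other changes was not tested. Separations in opposite directions stayed at 0, and those in the same direction in both strains (0 as deposited) became 2 with equal sums and 2 with equal medians, under alternatives chosen after seeing the data. No share of all promoters separated in both strains is given under these 2 scalings.

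The median ratio of members changed sign with the scaling, as did that of all promoters, from -0.13 to 0.29 with equal sums in C57BL/6J and, with equal medians, from 0.31 to -0.21 in FVB/N, from 0.50 to -0.04 between strains in controls and from 0.05 to -0.04 after DEHP. Of 27 ratios of named promoters, 0 changed sign, and 11, 12 and 9 were no longer separated with equal sums, equal medians and 2 SD. All 27 were chosen as separated, with sizes of 1.03 or more as deposited. The scaling factors are too small to turn the sign of such ratios, so the kept signs are no check. Leaving out libraries was not run, since the values are means over a group. No paired analysis was possible because the columns carry no replicate numbers.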
